A study of Homo sapiens with 3 samples.

Results

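The sine oculis homeobox transcription factors SIX2 to SIX6 and their EYA partners were followed in SW48 cells, an established line from a human colorectal cancer. Members were all probes of the array whose single gene symbol was SIX2, SIX3, SIX4, SIX5, SIX6, EYA1, EYA2, EYA3 or EYA4. This gave 12 of 31741 probes and 9 of 18282 named genes: 6 probes for the 5 homeobox genes and 6 probes for the 4 EYA genes. The rule picks probes by gene name, but the set of genes was proposed with earlier results of these data known, so the members' shares below are descriptions. RNA was measured on 1-colour Cy5 arrays, with 1 library in each of 3 groups. The library labelled DDX3+YAPsi came from cells that carried both a DDX3 overexpression plasmid and a YAP1 knockdown plasmid. The library labelled DDX3 came from cells with the overexpression plasmid, and the vector library from cells with empty pcDNA3.1. All cells were stable after 4 weeks under G418, and each library stands for 2 technical replicates, per the labels. The labels do not say whether a line was 1 clone or many, and a library with the knockdown plasmid alone is not among the 3 analysed. No group had a second sample, so no difference was tested and no spread between samples can be given.

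Sine oculis homeobox proteins bind DNA through a homeodomain and meet their partners through a domain of their own family. EYA proteins do not bind DNA by themselves: they bind these factors, bring a transactivation domain and carry a protein tyrosine phosphatase. Together with PAX and DACH genes they form a network known from eye, kidney, ear and muscle development. In the embryonic kidney SIX2 keeps nephron progenitors undifferentiated. DDX3 is a DEAD-box RNA helicase, and YAP1 is the Hippo pathway coactivator that acts through TEAD factors.

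The SIX2 promoter is shown because the SIX2 probe carried the only difference of at least 2-fold among the members. That of SIX6, a relative whose probe gave no signal above the floor, shared the longest run with it among the member promoters searched. Both are the 250 bases before the gene start from RefSeq, build GRCh38.p14, written 5′ to 3′ on the strand of the gene. SIX2 lies at chr2:45009453-45009702, minus strand, and SIX6 at chr14:60508896-60509145, plus strand. Capitals mark the runs of at least 10 letters found in both.
SIX2: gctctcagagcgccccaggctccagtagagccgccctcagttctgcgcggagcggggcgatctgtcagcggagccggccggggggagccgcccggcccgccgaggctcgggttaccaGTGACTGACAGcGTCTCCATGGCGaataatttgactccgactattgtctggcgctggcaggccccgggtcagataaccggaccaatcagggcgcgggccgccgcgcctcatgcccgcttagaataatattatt
SIX6: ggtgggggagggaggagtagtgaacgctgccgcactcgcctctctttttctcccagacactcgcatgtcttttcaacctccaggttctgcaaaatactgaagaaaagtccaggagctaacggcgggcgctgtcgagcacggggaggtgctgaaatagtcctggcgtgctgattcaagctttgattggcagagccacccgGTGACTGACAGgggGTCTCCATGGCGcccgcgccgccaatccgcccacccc
The promoters shared GTGACTGACAG, a run of 11 letters, and then GTCTCCATGGCG, a run of 12. They stood in the same order, 1 base apart in SIX2 and 3 bases apart in SIX6. The shorter run was in 22 and the longer in 12 of 35116 promoters on either strand, and both runs together were in 2, which were SIX2 and SIX6. Of the 9 members, the promoters of 5 were searched (SIX2, SIX4, SIX6, EYA3 and EYA4), and those of the others were not. In the other pairs of these 5 the longest shared run had 8 to 11 letters. The TEAD core CATTCC, searched on both strands, was in none of the 5 windows and in 11.9% of all promoters. The CCAAT box (CCAAT on either strand) was in SIX2, SIX4 and SIX6 and not in EYA3 or EYA4, against 32% of all promoters. The TATA box letters TATAAA, on either strand, were in none of the 5, against 10.7% of all promoters. These matches describe letters, and binding was not measured. The runs were picked out after the sequences had been read.

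The labels were checked first. YAP1, with 1 probe, had a scaled intensity of 20768 in the library labelled DDX3+YAPsi, 20279 in the library labelled DDX3, against 18298 in the vector library, so on the scaled values it was not lower with the knockdown plasmid. Its deposited, unscaled intensities were 15434, 21983 and 22713, lowest in the library labelled DDX3+YAPsi, where the deposited values as a whole were lowest. The probes of DDX3X, the gene of the helicase, had 813, 879 and 1975 (PH_hs_0028290) and 48085, 57967 and 49549 (PH_hs_0048661) in the same order, so DDX3 minus vector was -1.17 at the first and 0.23 at the second. The plasmid libraries are therefore named by their labels throughout, and probe positions relative to a plasmid insert were not given. Of 12 colorectal epithelial marker genes on the array, 9 were at or above the floor in all 3 libraries, EPCAM, KRT19, CDH1 and CDX2 among them, while VIL1 and FABP1 were below it in each. KRT8 was below the floor only in the library labelled DDX3+YAPsi, at 355. The 14 epithelial probes, those below the floor included, summed to 184345, 193999 and 194086 in the libraries labelled DDX3+YAPsi, DDX3 and vector. The bright probes of EPCAM, KRT19 and CDH1 made up most of each sum. Markers of other cells above the floor in all 3 were COL1A1 (1 of 7 fibroblast genes), CD14 and CD68 (2 of 4 leukocyte genes), MYOG (1 of 3 muscle genes), OSR1 and CITED1 (2 of 4 kidney progenitor genes) and none of 3 endothelial genes.

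Of the 12 member probes, 3 were at or above the floor in every library (SIX2, SIX5 and 1 probe of EYA3), 1 was near it (the other EYA3 probe), and 8 were below it in every library. The floor is the median of all probes of a library, at a scaled intensity of 411 in the library labelled DDX3+YAPsi, 382 in the library labelled DDX3, against 378 in the vector library. A comparison used the probes with both values at or above the floor, called measured here, and a probe was counted as apart at a log2 difference of at least 1. Values below are scaled so that the 75th percentile of every library was the same. Intensities of different probes cannot be set against each other, since probes differ in how strongly they bind their target.

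**Figure D1:**
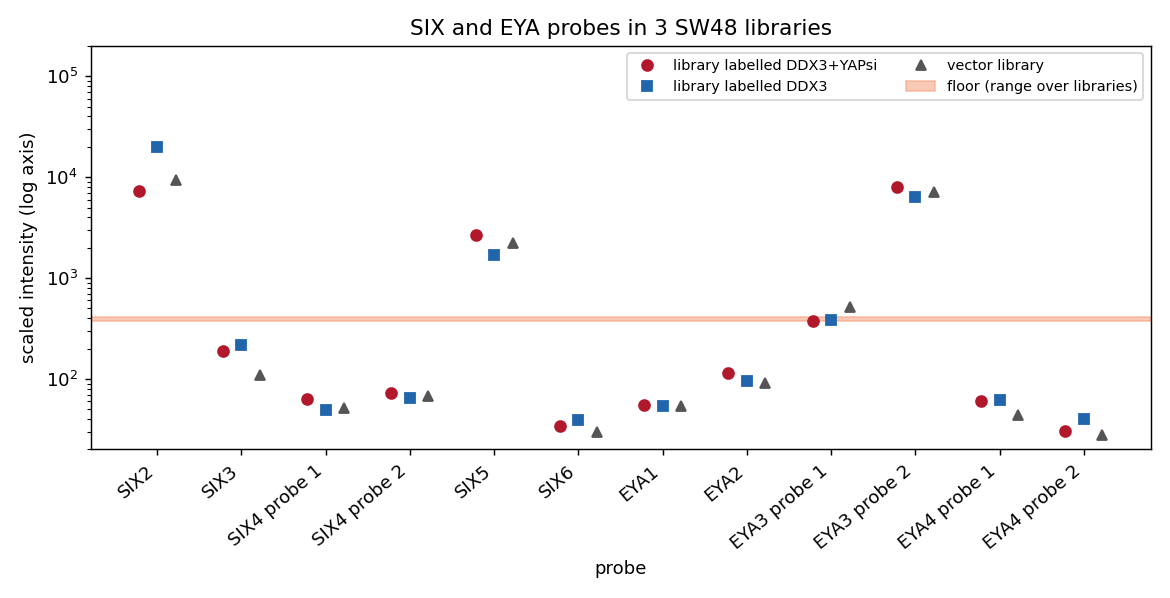
Scaled intensity (log axis) of the 12 member probes in the library labelled DDX3+YAPsi (circles), the library labelled DDX3 (squares) and the vector library (triangles), with the floors of 378 to 411 as a band. SIX2 stands out in the library labelled DDX3 at 20057, and 8 probes lie below the band in all libraries. Probe 1 of EYA3 is PH_hs_0024669 and probe 2 is PH_hs_0061341.

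SIX2, the nephron progenitor factor, had a scaled intensity of 7243 in the library labelled DDX3+YAPsi, 20057 in the library labelled DDX3, against 9353 in the vector library, all from probe PH_hs_0005664. The library labelled DDX3 was the high one, and the others lay within a log2 difference of -0.37 of each other (DDX3+YAPsi minus vector). DDX3 minus vector was 1.10 (log2), or 2.14-fold, and DDX3+YAPsi minus DDX3 was -1.47, or 2.77-fold lower. Both share the library labelled DDX3, so that these 2 differences are not independent of each other. In bulk RNA, a change in the number of cells with SIX2 RNA and a change in RNA per cell cannot be told apart. The deposited, unscaled intensities were 5383, 21743 and 11610 in the libraries labelled DDX3+YAPsi, DDX3 and vector, and on these DDX3 minus vector was 0.91, short of 2-fold.

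Against all measured probes the SIX2 differences were far out. DDX3 minus vector ranked 28 from the highest of 15435 and DDX3+YAPsi minus DDX3 ranked 5 from the lowest of 15378. SIX2 lay in the brightest of 10 equal groups of probes ordered by mean level. The middle 95% of the 3174 probes there ran between -0.54 and 0.46 for DDX3 minus vector, and between -0.60 and 0.55 for DDX3+YAPsi minus DDX3, and SIX2 was outside both. SIX2 was inside the range for DDX3+YAPsi minus vector, -0.61 to 0.62. SIX2 had 1 probe, so its values have no second probe beside them. Of 2140 genes with exactly 2 measured probes, 21 had a probe at least 2-fold apart for DDX3 minus vector. The other probe of the gene went the same way in 12 of these 21 and reached 2-fold in 0. For DDX3+YAPsi minus DDX3 the other probe went the same way in 10 of 14 genes and reached 2-fold in 0. The median gap between the log2 differences of 2 probes of a gene was 0.23 for DDX3 minus vector and 0.21 for DDX3+YAPsi minus DDX3, and 95% of gaps were below 0.72 and 0.67.

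**Figure D2:**
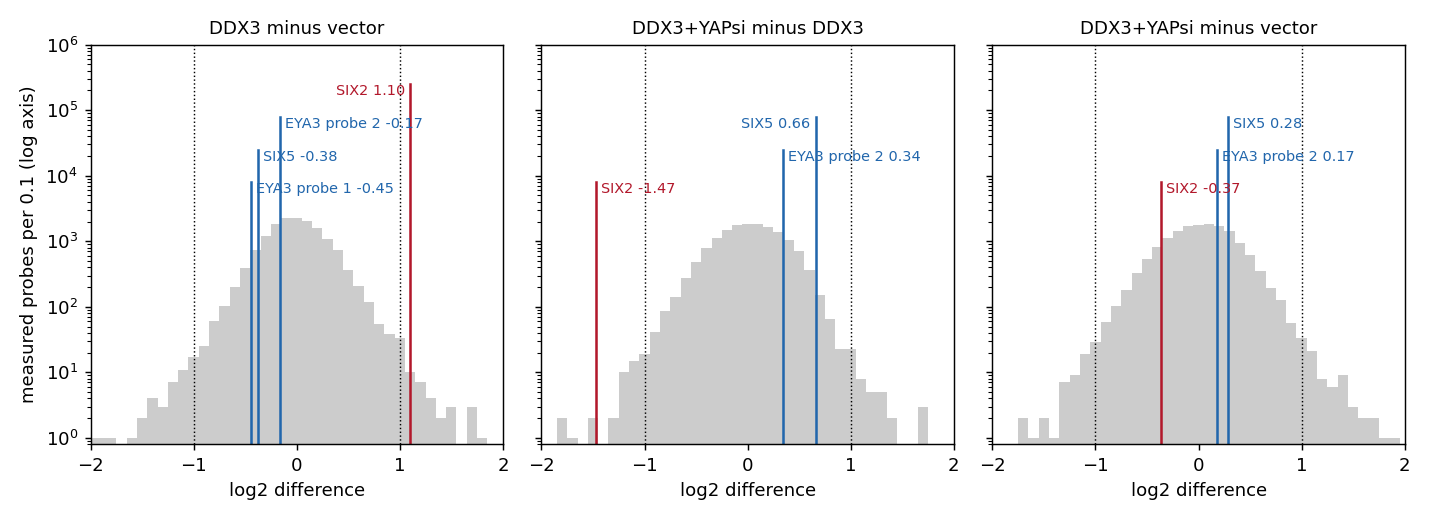
Number of measured probes (log axis) per 0.1 of log2 difference in the 3 comparisons, with the measured member probes as labelled lines (SIX2 in red) and 2-fold as dotted lines. Probes beyond the ends of the axis are not drawn. SIX2 lies past 2-fold at 1.10 for DDX3 minus vector and at -1.47 for DDX3+YAPsi minus DDX3, and the other members lie inside 2-fold.

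As a group, 1 of 4 measured member probes was at least 2-fold apart for DDX3 minus vector, against 0.551% of 15435 measured probes. It was 1 of 3 for DDX3+YAPsi minus DDX3, against 0.494% of 15378, and for DDX3+YAPsi minus vector 0 of 3, against 0.812% of 15394. The called probe was SIX2 both times. The median over the measured members was -0.27, 0.34 and 0.17 in these comparisons, against -0.01, 0.03 and 0.03 over all measured probes. With 3 or 4 measured probes these medians describe single values and not the family.

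SIX5, the factor beside the myotonic dystrophy kinase gene DMPK, had 2699 in the library labelled DDX3+YAPsi, 1709 in the library labelled DDX3, against 2219 in the vector library. It was lowest where SIX2 was highest. DDX3 minus vector was -0.38, DDX3+YAPsi minus DDX3 was 0.66 and DDX3+YAPsi minus vector was 0.28, all short of 2-fold. DDX3+YAPsi minus DDX3 ranked 267 from the highest of 15378, and 3.70% of measured probes were at least as far from 0. It lay just outside the middle 95% of its level group, -0.63 to 0.60. At 1.5-fold in place of 2-fold, SIX5 and SIX2 passed in this comparison, 2 of 3 measured member probes against 6.36% of all measured probes. Without scaling, DDX3+YAPsi minus DDX3 of SIX5 was 0.11, and DDX3+YAPsi minus vector turned to -0.46.

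Of the remaining homeobox genes, none had a probe at or above the floor in any library. SIX3, known for forebrain and eye development and next to SIX2 on chromosome 2, had 188 in the library labelled DDX3+YAPsi, 218 in the library labelled DDX3, against 110 in the vector library. All 3 values were below the floor, and no fold is read from them. SIX4, a muscle and kidney factor, had 62.5, 48.8 and 51.7 at PH_hs_0005343 and 72.2, 64.7 and 67.2 at PH_hs_0014337 in the libraries labelled DDX3+YAPsi, DDX3 and vector. SIX6, an eye and pituitary factor, had 33.9, 39.0 and 29.9 in the same order.

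EYA3, a widely expressed EYA phosphatase, was the one EYA gene with a probe above the floor in each library. Its probe PH_hs_0061341 had 8065 in the library labelled DDX3+YAPsi, 6366 in the library labelled DDX3, against 7146 in the vector library. DDX3 minus vector was -0.17, DDX3+YAPsi minus DDX3 was 0.34 and DDX3+YAPsi minus vector was 0.17, each inside the middle 95% of its level group, and without scaling the last 2 turned to -0.20 and -0.57. Its other probe, PH_hs_0024669, had 379, 383 and 521 in the same library order. It was measured only for DDX3 minus vector, at -0.45, and the library labelled DDX3+YAPsi was at least 1.27-fold lower than the vector library by its floor. On the scaled values the EYA3 probes thus went opposite ways for DDX3+YAPsi minus vector and the same way for DDX3 minus vector. Without scaling both were below 0 for DDX3+YAPsi minus vector as well.

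The other EYA genes were below the floor in every library. EYA1, the branchio-oto-renal syndrome gene, had 55.3 in the library labelled DDX3+YAPsi, 54.1 in the library labelled DDX3, against 53.7 in the vector library. EYA2 had 116, 94.5 and 92.0, and EYA4, a gene of hereditary deafness, had 60.2, 61.6 and 43.5 at PH_hs_0022251 and 30.6, 39.9 and 27.9 at PH_hs_0049023, in the same order. At this signal over background a change in these genes was not detectable.

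The genes beside the members on the chromosome were described next, with the 2 nearest protein-coding genes on each side in RefSeq. They gave 37 probes of 26 genes that are not members. Of these, 25 were measured for DDX3 minus vector, 25 for DDX3+YAPsi minus DDX3 and 26 for DDX3+YAPsi minus vector. None was at least 2-fold apart, against 0.551%, 0.494% and 0.812% of all measured probes. With so few probes and such small shares, this sets the neighbours apart from neither SIX2 nor the array. CAMKMT, a calmodulin methyltransferase gene 2 places from SIX2, had 813 in the library labelled DDX3+YAPsi, 682 in the library labelled DDX3, against 1256 in the vector library, so that DDX3 minus vector was -0.88, opposite in sign to SIX2. SRBD1, on the other side of SIX2, had 987, 1176 and 1301, and PRKCE, a protein kinase C gene, had 832, 769 and 688 at its probe above the floor. Neither was highest in the library labelled DDX3, as SIX2 was. PREPL, a peptidase-like gene on the far side of SIX3, was highest there at both probes, with 6554, 9000 and 7755 at PH_hs_0036212 and 2234, 2615 and 2553 at PH_hs_0000018. On the deposited values this held at PH_hs_0036212 (4871, 9756 and 9627). At PH_hs_0000018 the vector library was then highest (1660, 2835 and 3169). DMPK, next to SIX5, had 510 in the library labelled DDX3+YAPsi, 289 in the library labelled DDX3, against 503 in the vector library at PH_hs_0000109. As with SIX5, the library labelled DDX3 was the lowest. Taking its floor for the low value, DDX3+YAPsi over DDX3 was at least 1.33-fold higher, and DDX3 was at least 1.32-fold lower against vector. The other DMPK probe was below the floor in all libraries. The other neighbours of SIX5 with a probe did not share its order: FBXO46, an F-box protein gene, had 3627, 3807 and 2695, and DMWD had 932, 766 and 681.

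Genes that act with the members were taken as lists. Of 14 genes for PAX, DACH and SKI-type partners, 7 probes of 5 genes were measured for DDX3 minus vector, 6 above 0 with a median of 0.40. SKI, a DACH-related corepressor, had 1463 in the library labelled DDX3+YAPsi, 1578 in the library labelled DDX3, against 867 in the vector library at PH_hs_0060986. Its other probe had 3393, 2473 and 1877. Both SKI probes were lowest in the vector library, with DDX3+YAPsi minus vector at 0.76 and 0.85. Scaling added 0.74 to these 2 differences. The deposited values of the libraries labelled DDX3+YAPsi and vector were close, at 1087 and 1076 (PH_hs_0060986) and at 2522 and 2330 (the other probe). PAX3, a factor of muscle precursors, had probes above the floor at 0.50 and 0.38 for DDX3 minus vector and at -0.66 and 0.22 for DDX3+YAPsi minus DDX3, so these disagreed in the second comparison, and its other probes were below the floor. DACH1 was below the floor in all libraries. The list median was 0.22 for DDX3+YAPsi minus DDX3, with 4 of 7 above 0.

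Among 17 nephron progenitor and kidney genes known beside SIX2, 10 probes of 9 genes were measured. For DDX3 minus vector 5 lay above 0 and 5 below with a median of 0.01, and for DDX3+YAPsi minus DDX3, where SIX2 was lower, 9 of 10 lay above 0 with a median of 0.22. Without scaling 0 of 10 lay above 0 for DDX3+YAPsi minus DDX3, with a median of -0.32, so the direction of this list against SIX2 depends on the scaling. CITED1, a coactivator of the same progenitors, had 15454, 12886 and 11438 in the libraries labelled DDX3+YAPsi, DDX3 and vector, and OSR1, which acts earlier in kidney formation, had 2984, 2331 and 2047. Both were highest in the library labelled DDX3+YAPsi after scaling and lowest there on the deposited values, which were 11485, 13969 and 14197 for CITED1 and 2218, 2527 and 2541 for OSR1. FGF9, a growth factor for these cells, differed by 0.61 for DDX3 minus vector at its brighter probe and by 0.07 at the other. GDNF, a SIX2 target in kidney, and SALL1 were below the floor in all libraries.

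Of 12 genes known as targets of the homeobox family in other tissues, 9 probes of 7 genes were measured, 4 above 0 for DDX3 minus vector (median -0.04) and 7 for DDX3+YAPsi minus DDX3 (median 0.09). MYOG, a myogenic factor, differed by 0.28 and -0.36 in these comparisons. On the scaled values it was the only measured probe of the list with the signs of SIX2 in both. On the same values CDH1 (-0.26 and 0.08) and EZR had the opposite signs in both. So did each SLC12A2 probe (-0.30 and 0.09, -0.14 and 0.19). MYC differed by 0.43 and 0.06, CCND1, a cyclin of the G1 phase, by 0.18 and 0.32, and EZR, a membrane-cytoskeleton linker, by -0.04 and 0.24. Without scaling 3 of 9 lay above 0 for DDX3 minus vector and 0 of 9 for DDX3+YAPsi minus DDX3. With centring on the median 4 of 9 lay above 0 for DDX3+YAPsi minus DDX3. Which probes share the signs of SIX2 thus depends on the scaling. For EYA, the histone H2AFX, whose phosphotyrosine EYA removes, had 137563, 119710 and 109111 in the libraries labelled DDX3+YAPsi, DDX3 and vector at its brighter probe. Its other probe had 1616, 1295 and 1467, so that DDX3 minus vector was 0.13 at the first and -0.18 at the second. BAZ1B, the kinase of that tyrosine, had 24427, 21787 and 19111 in the same order. The deposited values were lowest in the library labelled DDX3+YAPsi for both genes. They were 18153, 23618 and 23722 for BAZ1B and 102231, 129771 and 135439 for the brighter H2AFX probe. The measured probes of this list had medians of 0.16 for DDX3 minus vector (4 of 6 above 0) and 0.17 for DDX3+YAPsi minus DDX3 (5 of 6). Without scaling these counts were 2 of 6 and 0 of 6. Of 7 genes for Groucho-type corepressors and HES1, which works with them, 6 were measured, with medians of -0.03 and 0.07 in these comparisons. AES had the value farthest from 0, at -0.63 for DDX3 minus vector.

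The TEAD and YAP list held CYR61, a YAP target and the 1 measured probe of the lists past 2-fold. It was 1 of 10 measured probes of its list for DDX3 minus vector, against 0.551% of 15435 measured probes. CYR61 had 585 in the library labelled DDX3+YAPsi, 861 in the library labelled DDX3, against 417 in the vector library, so DDX3 minus vector was 1.05 and DDX3+YAPsi minus DDX3 was -0.56. The vector value lay near its floor of 378. After scaling the order of the libraries differed from that of SIX2. On the deposited values (435, 933 and 518) the order was the same, with the library labelled DDX3+YAPsi lowest. On these values DDX3 minus vector of CYR61 was short of 2-fold. CTGF, another YAP target, had 854, 698 and 476, highest in the library labelled DDX3+YAPsi, while its deposited values of 634, 757 and 590 were highest in the library labelled DDX3. In all, 7 of 10 measured probes of the list were above 0 for DDX3 minus vector (median 0.11) and 8 of 9 for DDX3+YAPsi minus DDX3 (median 0.24). Over all measured probes 48.2% and 53.2% were above 0 in these comparisons. Without scaling, every list median for DDX3+YAPsi minus DDX3 was below 0, between -0.47 and -0.30, and with centring on the median those of the Groucho and homeobox target lists were -0.03 and -0.01.

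**Figure D3:**
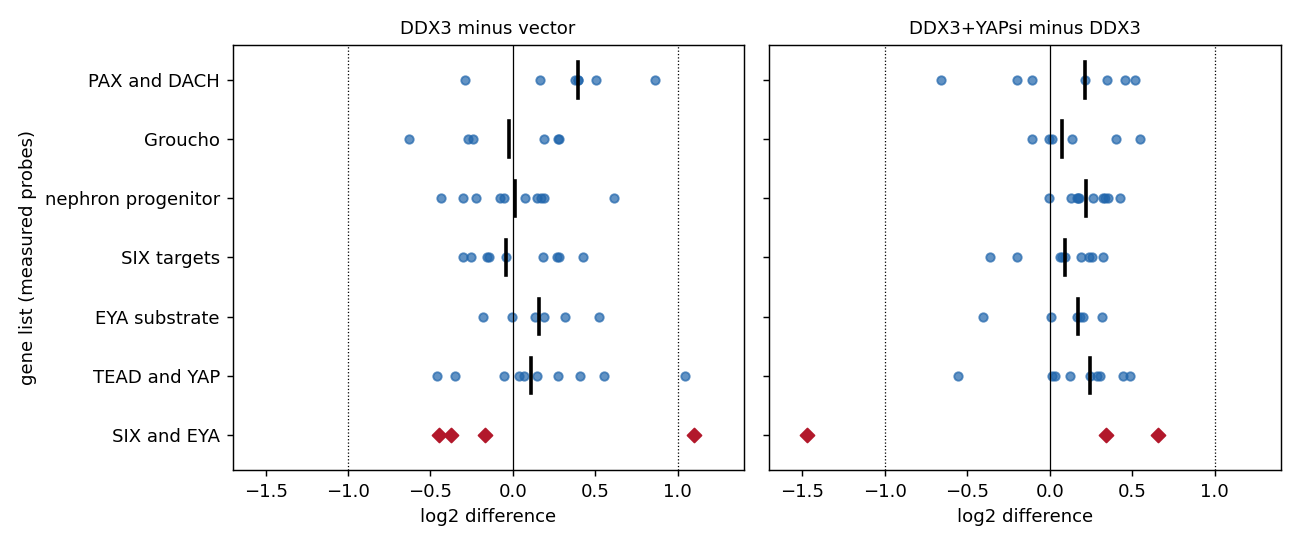
Log2 differences of measured probes by gene list for DDX3 minus vector and DDX3+YAPsi minus DDX3. Circles are probes, black bars list medians, red diamonds the member probes, and dotted lines 2-fold. SIX2 is past 2-fold in both panels, at 1.10 and -1.47, and CYR61 at 1.05 in the left panel.

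The probes most like SIX2 were sought among 12940 probes with 1 gene symbol at or above the floor in all 3 libraries, by the Euclidean distance over DDX3 minus vector and DDX3+YAPsi minus DDX3. The 6 nearest were OFCC1 (distance 0.31), LRRC20 (0.38), MRPS33 (0.43), PLB1 (0.46), GMFB (0.48) and NME4 (0.51). MRPS33, a protein of the small mitochondrial ribosomal subunit, had 1290 in the library labelled DDX3+YAPsi, 3015 in the library labelled DDX3, against 1801 in the vector library. NME4, a mitochondrial nucleoside diphosphate kinase, had 736, 1693 and 584 in the same order. All 6 were highest in the library labelled DDX3, which the search itself requires. DDX3+YAPsi minus vector, -0.37 for SIX2, is the sum of the 2 differences searched on, so it is no separate measure of likeness. It was below 0 for 5 of them, between -0.52 and -0.19, and 0.33 for NME4. With 3 libraries this likeness rests on 2 differences.

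**Figure D4:**
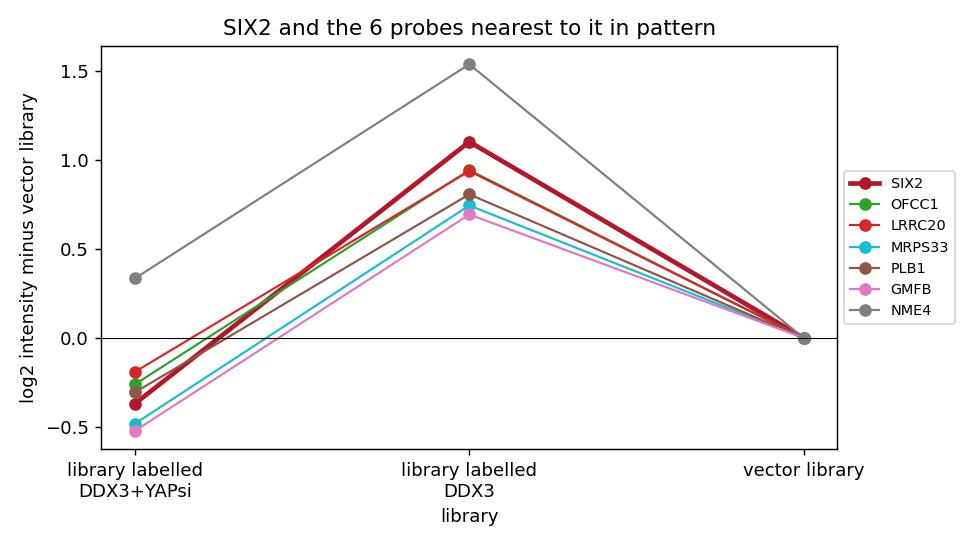
Log2 intensity minus that of the vector library for SIX2 and the 6 probes nearest to it, in the libraries labelled DDX3+YAPsi, DDX3 and vector (set to 0). Lines join the values of a probe. SIX2 stands at -0.37 and 1.10, and NME4, at 0.33 and 1.54, is the 1 of these above the vector library in both.

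**Figure D5:**
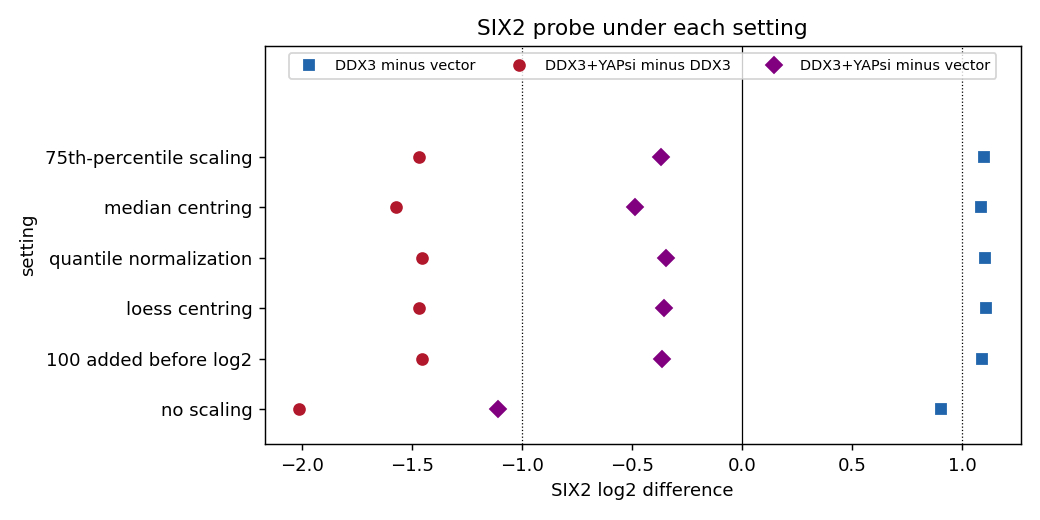
SIX2 log2 difference in the 3 comparisons under 6 settings, with dotted lines at 2-fold. Scaled settings lie close together, from 1.09 to 1.11 for DDX3 minus vector, while without scaling the values are 0.91, -2.01 and -1.11.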

How the data were processed

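Total RNA of SW48 cells was amplified, labelled with Cy5 and hybridised to 1-colour arrays, per the labels' protocols. Deposited was 1 intensity per probe and library, on a linear scale by its range. Background correction, scaling and the way 2 technical replicates were combined by the authors were not given in the sources used here. Deposited medians were 305 for the library labelled DDX3+YAPsi, 414 for the library labelled DDX3 and 469 for the vector library, so no common level had been set. Each library was multiplied (by 1.35, 0.922 and 0.806) to give all the same 75th percentile, and log2 was taken. This raised DDX3 minus vector by 0.20, DDX3+YAPsi minus DDX3 by 0.54 and DDX3+YAPsi minus vector by 0.74 for every probe. After it the array medians still differed by 0.01, 0.11 and 0.12, and a change shared by most genes cannot be seen. No sample column was left unused (0).

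Gene symbols came from GEO's platform annotation and can be old. Probes with 1 symbol (24658) could be named, and those with several (1002) or none given (6081) entered only the counts over all probes. All 9 members are current RefSeq symbols. Array symbols such as CYR61, CTGF, H2AFX and AES are kept. With 3 arrays, precision is limited by their number. The scaling and the 2-fold count for DDX3 minus vector were tested on simulated data, with changes set in bright probes only. The promoter, neighbour, list and pattern steps were not tested in this way.

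The members and gene lists were chosen with earlier results of these data known. Named were every member probe, DDX3X and YAP1, in each list at most 4 genes of the largest difference, and the 6 probes nearest to SIX2; other listed or neighbouring genes were named after their values were seen. Alternatives were no scaling, median, quantile and loess centring, an added 100, floors at the 25th and 75th percentile or none, thresholds of 1.5-fold and 3-fold, and mean or brightest probe per gene. Python 3.11.15, pandas 2.3.3 and statsmodels 0.14.6 were used.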

Additional observations from a re-analysis of the deposited data

How the results depend on the processing

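SIX2 kept its direction in all 3 comparisons under all 5 alternatives for scaling and low values, and its side of 2-fold in all but no scaling. Without scaling DDX3 minus vector was 0.91, short of 2-fold, and DDX3+YAPsi minus vector was -1.11, past it, by the constant that scaling adds. Member probes at least 2-fold apart accordingly numbered 0 for DDX3 minus vector and 1 for DDX3+YAPsi minus vector without scaling. At 3-fold there were 0 for DDX3 minus vector and 0 for DDX3+YAPsi minus DDX3, and at 1.5-fold there were 2 for DDX3+YAPsi minus DDX3, SIX2 and SIX5. Mean or brightest probe per gene left the count of genes at 1, 1 and 0. Of the other member probes' values under an alternative, 130 kept sign and side of 2-fold and 34 changed sign while short of 2-fold. The remaining 1, the dimmer EYA3 probe for DDX3+YAPsi minus vector without scaling (-1.20), passed 2-fold. These counts include the 8 probes below the floor in every library, which gave most of the values and whose signs are not read.

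Counts over all probes moved more. For DDX3 minus vector 85 probes were apart (44 higher, 41 lower), against 188, 20 and 286 with a floor at the 25th or 75th percentile or none, 762 and 10 at 1.5-fold and 3-fold, and 16 higher and 98 lower without scaling. For DDX3+YAPsi minus DDX3 the count was 76 (35 and 41), against 183, 16, 267, 978 and 7, with splits of 19 and 63 after median centring, 23 and 47 after loess and 4 and 1040 without scaling. For DDX3+YAPsi minus vector it was 125 (66 and 59), against 242, 31, 331, 1262 and 9, and 81 with 100 added, with splits of 33 and 110 after median centring and 3 and 3089 without scaling. No paired analysis was possible because each group held 1 library. Signal below the floor limits SIX3, SIX4, SIX6, EYA1, EYA2 and EYA4.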
